A study of Nannochloropsis oceanica with 44 samples.

Results

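The genes described here are 91 genes of Nannochloropsis oceanica whose transcripts were at their lowest 12 h or 24 h after nitrogen was given back to starved cells. They make up 22.7% of the 401 genes in the authors' cluster 2, the cluster that was low after resupply, and 3.66% of the 2489 genes in the 4 deposited tables. The members were chosen by their values among the genes of cluster 2 only, and each condition uses the log2 values as deposited. Without the restriction to cluster 2, 766 genes of the 4 tables met the same conditions, 626 of them in cluster 3. The lowest of the 10 time points had to be 12 h or 24 h of resupply (NR). The value at 6 h NR had to lie no more than 3 below that at 72 h of deprivation (N-), which is 8-fold, and the value at 72 h NR within 1 of that at 6 h N-. The value at 72 h N- could be at most 1 above, and that at 24 h N- at most 1 below, the value at 6 h N-.

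Nannochloropsis oceanica is a single-celled marine alga that is studied for its oil. When nitrogen runs out, such algae stop dividing, take apart much of their photosynthetic machinery and store triacylglycerol, a neutral lipid. When nitrogen returns they go back to growth and draw on these stores. Genes that are active in the starved state and go down after resupply are the ones on which such a switch would show as a loss of transcripts, and genes that come back later would show how lasting that loss is.

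All samples were the wild type strain CCMP1779, grown as a liquid culture in F/2 medium under continuous light. For the N- groups, cells were washed and moved into medium without nitrogen and taken at 5 times between 6 h and 72 h. For the NR groups, cells starved for 72 h were moved back into nitrogen-containing F/2 medium and taken after the same hours, so that every NR sample also carries the history of 72 h without nitrogen. In all 44 libraries in 11 groups of 4 are labelled, 1 of them a 0 h group that is not analysed here, and no group was kept starving beyond 72 h.

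Each gene has 1 value per time point, so none of the differences has an error, and none could be tested against the spread between cultures. A gene is called higher or lower where its values differ by more than 1 on the log2 scale, which is 2-fold. All 10 time points took part in choosing the members, so their profiles are a description, and the shares over all 2489 genes stand beside them as background only. The 2489 genes are themselves those that passed the authors' test. From 12 h to 24 h NR their median moved up by 1.76, and how much of that belongs to the scaling of the libraries was not tested. Values are also given relative to the median of all 2489 genes in each column, called centred values, where that changes the picture.

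Most members had their highest value in deprivation, and their median dropped within the first 6 h of resupply. By 72 h NR they were within 1 of their values at 6 h N-, which the rule required. The median value over the 91 members was 9.52 at 6 h N-, 9.80 at 12 h, 9.48 at 24 h, 9.52 at 48 h and 9.44 at 72 h. Resupply took it to 7.95 in the first 6 h, and it then stood at 7.80 (12 h), 8.14 (24 h), 8.81 (48 h) and 9.42 (72 h). In 79 members (86.8%) the highest of the 10 values was a deprivation value, beside 29.7% of all genes and 87.7% of the other cluster 2 genes. Most often it was that of 12 h N-, in 41 members (45.1%), beside 18.8% and 33.5%. The lowest value was that of 12 h NR in 69 members (75.8%) and that of 24 h NR in 22 (24.2%). RNA of a whole culture was measured, so less transcript in every cell and fewer cells that use a gene cannot be told apart.

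**Figure D1:**
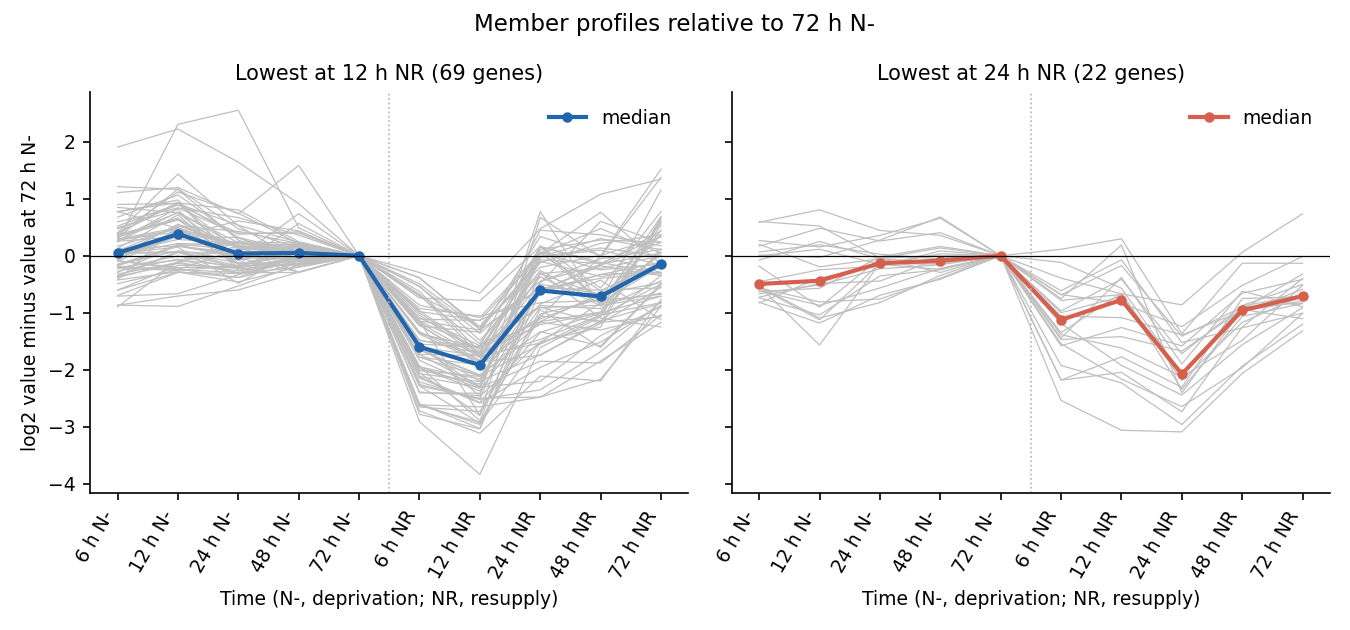
Log2 values of the 91 members minus their own value at 72 h N- (y axis) at the 5 deprivation and 5 resupply times (x axis), with 1 grey line per gene and the median in colour. The 69 genes lowest at 12 h NR (left) have a median of -1.60 already at 6 h NR, and the 22 genes lowest at 24 h NR (right) reach a median of -2.08 at 24 h NR.

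A working name for these genes is late repression, and the deposited values go against the word late for most of them. At 6 h NR, 67 of the 91 members (73.6%) were already more than 2-fold lower than at 72 h N-, beside 22.7% of all genes. At 12 h NR 77 were lower (84.6%), beside 27.2% of all genes, and at 24 h NR 46 were (50.5%), beside 11.1%. Of the other cluster 2 genes 96.8%, 92.3% and 62.3% were lower at 6, 12 and 24 h NR, so early lowering was more frequent there than in the members. No member was more than 2-fold higher at these times, beside 28.8%, 29.2% and 61.3% of all genes. Of the other cluster 2 genes 0, 0 and 1 were higher. Between 6 h and 12 h NR 3 members were lower by more than 2-fold and 1 was higher, beside 13.8% and 10.8% of all genes. The median difference from 72 h N- was -1.47 at 6 h NR (quartiles over genes -2.01 and -0.97), -1.77 after 12 h and -1.02 after 24 h, which are 2.77-fold, 3.42-fold and 2.03-fold lower levels. The genes of the list are therefore called the members below.

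Most of the loss was present at the first sampling of resupply. Measured on the log2 scale, the median member had 77.7% of its whole drop, from 72 h N- to its lowest value, in place at 6 h NR. In 72 members the share was over 50%, and in 20 it was at least 90%. The rule kept 6 h NR from being a member's lowest value, so no member could show its whole drop there. In the other cluster 2 genes the drop was counted to the lower of 12 h and 24 h NR. Their median share was 111.7%, and it was over 50% in 302 of 310 and at least 90% in 259. The members lowest at 12 h NR had a median share of 82.7% and those lowest at 24 h NR 57.3%. This order in time turns with the scaling. In centred values the median share at 6 h NR was 42.7%, and 63 members had their lowest value at 24 h NR, 14 at 12 h, 11 at 48 h, 2 at 6 h and 1 at 72 h NR. On that scale 14 members thus have their low point outside the times that define the list.

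**Figure D2:**
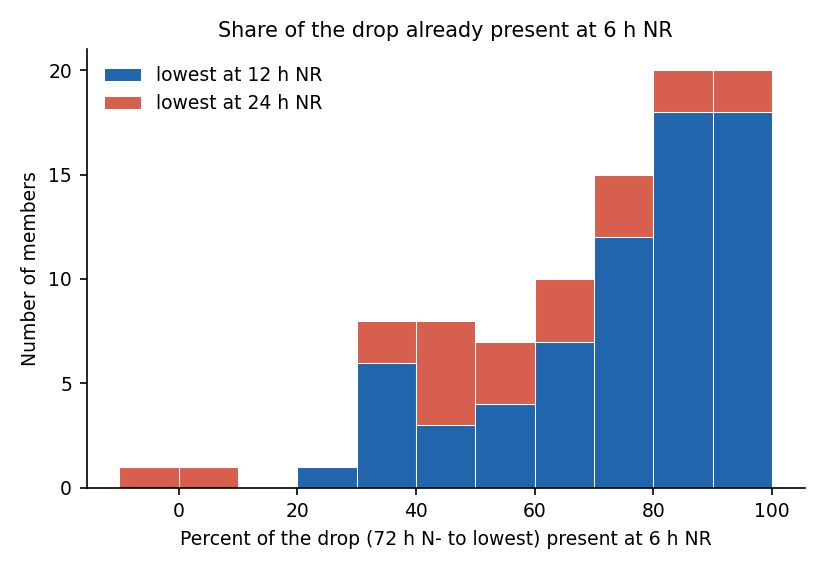
Histogram of the percent of each member's log2 drop (72 h N- to its lowest value) that was present at 6 h NR (x axis), with the number of members (y axis) stacked by the time of the lowest value. The 72 members with a share over 50% make up the right side, and those lowest at 24 h NR are spread more widely.

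The drop, as a log2 difference between the lowest value and 72 h N-, ranged from -3.84 to -0.66 among the members. The deepest was that of snap_masked-nanno_742-abinit-gene-0.12, an unnamed gene model on contig 742, which stood at 8.81, 9.04, 8.91, 9.17 and 9.18 through deprivation and at 6.26, 5.34, 7.56, 8.10 and 9.79 through resupply. It was nearly flat while nitrogen was absent, 14.3-fold lower at 12 h NR than at 72 h N-, and at its own highest value by 72 h NR. The next deepest, maker-nanno_6059-augustus-gene-0.2, stood at 8.11, 8.15, 8.48, 8.73 and 8.82 in deprivation and at 6.09, 5.70, 6.71, 6.62 and 8.05 in resupply. It went up slightly with each deprivation time before an 8.67-fold lower value at 12 h NR, and it came back later, staying more than 2-fold below 72 h N- up to 48 h NR.

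The smallest drops belonged to a pair of genes that were already below their earlier values at 72 h N-. The gene maker-nanno_3351-augustus-gene-0.33 stood at 10.24, 10.33, 9.87, 10.72 and 9.14 in deprivation and at 8.84, 8.48, 9.61, 10.22 and 10.48 in resupply. Its value at 72 h N- was the low point of deprivation, so the drop counted from there was -0.66, although 12 h NR lay well below the other deprivation values. For snap_masked-nanno_5106-abinit-gene-0.8 the drop was -0.79, from 9.06 in the last deprivation sample to 8.27 at 12 h NR. Together with augustus_masked-nanno_244-abinit-gene-0.0 (drop -0.86, picked out after its values were seen), these were the 3 members with no value more than 2-fold below 72 h N- at 6, 12 or 24 h NR.

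The step from 12 h to 24 h NR split the members most. Its log2 difference ranged from -2.60 to 3.47, beside -5.13 to 6.83 in all genes. In this step 43 members (47.3%) were more than 2-fold higher, beside 49.8% of all genes, and 10 were lower, beside 10.2%. Both counts were near the shares of all genes, so the split was not particular to the members. Of the other cluster 2 genes 37.4% were higher and 3.87% lower. Differences between members within this step do not depend on how the columns were scaled, but the direction of the step does. The median was 0.95 as deposited and -0.82 in centred values, where 2 members were higher and 44 lower. Of the 310 other cluster 2 genes 6 were higher and 160 lower in centred values.

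Among the genes lowest at 12 h NR, the largest step up was that of augustus_masked-nanno_6786-abinit-gene-0.1, which stood at 12.11, 12.42, 11.84, 11.11 and 10.20 in deprivation and at 9.05, 7.40, 10.87, 10.18 and 11.58 in resupply. It declined from 12 h N- to 12 h NR without a pause and was 11.1-fold higher 12 h later. The second, augustus_masked-nanno_463-abinit-gene-0.1, was flat in deprivation (10.36, 10.66, 10.18, 10.04 and 10.03) and stood at 7.64, 7.57, 10.80, 9.14 and 10.09 in resupply. Its 24 h NR value, 9.39-fold above that of 12 h, was the highest of all its values.

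The largest steps down belonged to genes that were hardly lower in the first hours. The gene snap_masked-nanno_831-abinit-gene-0.19 stood at 7.07, 6.51, 6.79, 7.26 and 7.61 in deprivation and at 6.86, 7.80, 5.20, 6.67 and 6.50 in resupply. Its 12 h NR value was the highest of the series and its 24 h NR value, 6.05-fold lower, the lowest. The gene maker-nanno_290-snap-gene-0.14, with 9.20, 8.81, 8.95, 8.71 and 9.00 in deprivation, stood at 9.11, 9.30, 7.63, 8.87 and 8.87 in resupply. It too was highest at 12 h NR and had a single low time point, 3.18-fold below the one before.

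**Figure D3:**
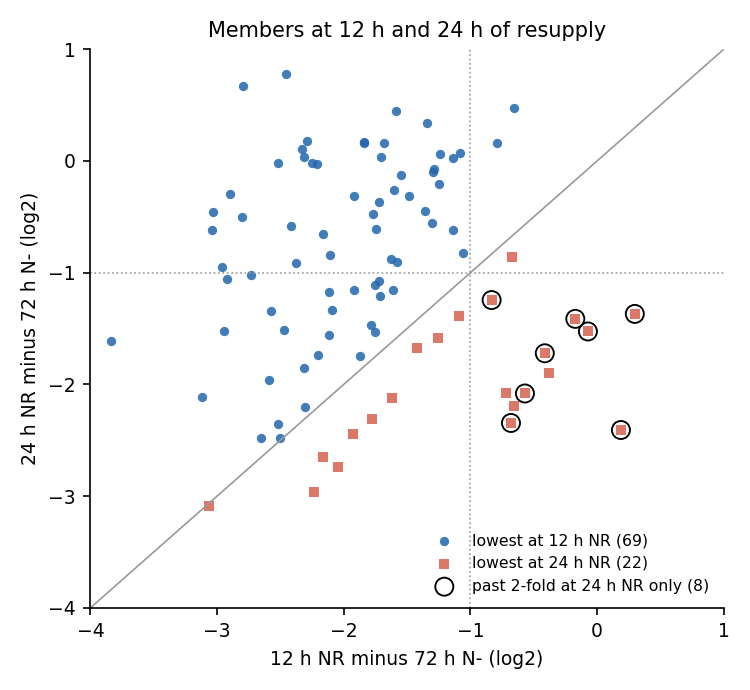
Difference from 72 h N- at 12 h NR (x axis) and at 24 h NR (y axis), both log2, for the 91 members, with dotted lines at 2-fold lower and a diagonal where both are equal. The 69 genes lowest at 12 h NR lie above the diagonal and the 22 lowest at 24 h NR below it, and the 8 circled genes are past 2-fold at 24 h NR only.

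Sorted by the times at which they were more than 2-fold below 72 h N-, the members took 6 courses. In 35 genes 6, 12 and 24 h NR were all past 2-fold, beside 8.68% of all genes, and in 29 genes 6 and 12 h were, beside 9.52%. In 13 genes 12 h NR alone was past 2-fold, beside 8.76%, in 3 genes 6 and 24 h were, beside 0.522%, and in 3 genes none of the times was, beside 66.7%. The remaining 8 genes passed 2-fold at 24 h NR only, beside 1.73% of all genes (43 of 2489).

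These 8 genes were singled out after their values were seen. Even among them 2 had over 50% of their drop in place at 6 h NR, and the median share was 36.8%. Their median difference from 72 h N- was -0.68 at 6 h NR, -0.29 after 12 h, -1.62 after 24 h and -0.89 after 48 h. In centred values the 24 h difference was -2.97 and all 8 were again lower. In 6 of them the 12 h NR value was above that of 6 h NR, against 0 of the 69 genes lowest at 12 h NR, which the grouping fixes. In deprivation, 6 of the 8 had a dip at 12 h N-, below both 6 h and 24 h N-, beside 16.8% of all genes and 18.4% of the other cluster 2 genes. The dip was present in 11 of all 22 genes lowest at 24 h NR and in 2 of the 69 lowest at 12 h NR. The median of 12 h N- minus 6 h N- was -0.35 in the 8 and 0.27 in the 69.

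Beside the median of cluster 3, the large group of genes that was high at 12 h N-, lowest at 12 h NR and highest at 24 h NR, these 8 profiles ran largely the other way. The Pearson correlation with the cluster 3 median over the 10 time points was negative in 7 of the 8, with a median of -0.64. It was positive in each of the 69 genes lowest at 12 h NR, with a median of 0.55. Within the 22 genes lowest at 24 h NR the median was -0.11 and 13 were negative. The groups were formed by their values at 12 h and 24 h NR, the low point and the peak of cluster 3, so these signs largely follow from the grouping. The points of such a correlation also share the scaling of their columns, and the clusters were themselves formed by correlation.

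**Figure D4:**
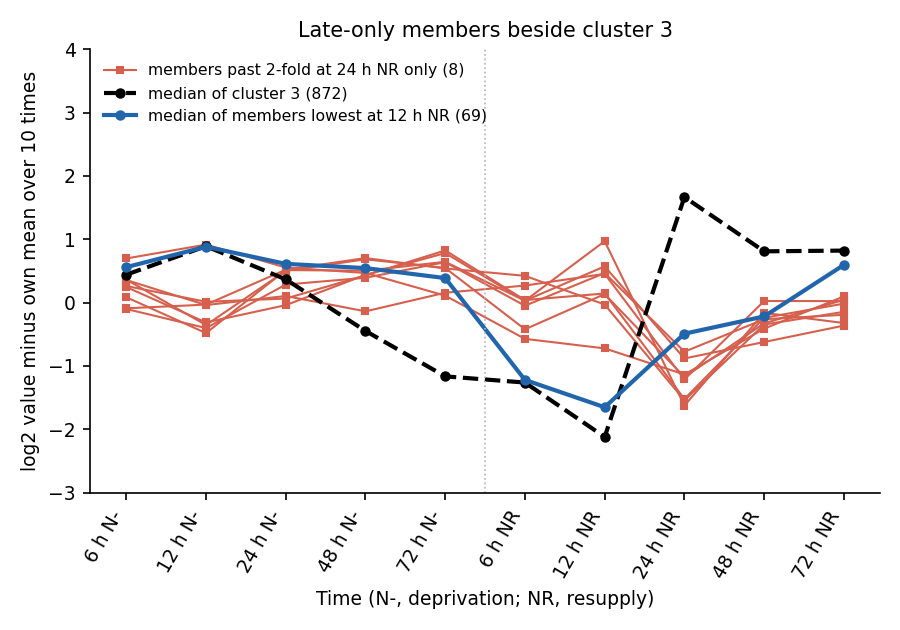
Log2 values minus each profile's own mean over 10 times (y axis) at each time (x axis) for the 8 members past 2-fold at 24 h NR only, the median of the 872 genes of cluster 3 and the median of the 69 members lowest at 12 h NR. The 8 genes are low at 24 h NR, where cluster 3 has its peak, and most dip at 12 h N-, where the other 2 lines are high.

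By the end of resupply most of the loss had been made up in the values as deposited, which follows in part from the rule. At 72 h NR 82 members (90.1%) were more than 2-fold above their lowest value. The share was 70.3% in all genes and 87.1% in the other cluster 2 genes. Between 24 h and 48 h NR 13 members were higher and 2 lower, beside 8.04% and 20% of all genes, and between 48 h and 72 h NR 17 were higher and 0 lower, beside 5.46% and 11.4%. In 51 members (56.0%) the values went up from 24 h to 48 h and again to 72 h NR, beside 9.96% of all genes and 47.4% of the other cluster 2 genes. As deposited, the median member had regained 60.7% of its drop at 48 h NR and 83.8% at 72 h NR. The medians were near these in the other cluster 2 genes, at 60.1% and 79.1%, counted from the lower of 12 h and 24 h NR. For the members lowest at 12 h NR the share at 72 h was 92.5%, and for those lowest at 24 h NR it was 67.6%. Regained shares were not computed on centred values. There 59 members were at 72 h NR more than 2-fold above the lower of their 12 h and 24 h NR values.

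Against 72 h N-, the value from which the cells were resupplied, 11 members were still lower at 72 h NR and 4 were higher, beside 7.87% and 47.2% of all genes. The median difference was -0.32 as deposited, and in centred values it was -1.24, with 59 members lower and 0 higher. On the centred scale 213 of the 310 other cluster 2 genes were lower and 4 higher, and shares over all genes were not computed. The largest return was again that of snap_masked-nanno_742-abinit-gene-0.12, 4.45 above its low point, followed by 4.17 in augustus_masked-nanno_6786-abinit-gene-0.1. The smallest was that of snap_masked-nanno_908-abinit-gene-0.29, which stood at 11.88, 12.07, 11.82, 11.80 and 11.61 in deprivation and at 10.68, 10.55, 10.78, 10.82 and 10.93 in resupply. It went to a lower level at 6 h NR and moved by only 0.38 from its low point to 72 h NR. In maker-nanno_6581-snap-gene-0.10 the return was 0.52, from 7.82 at 24 h NR to a final 8.34, while its last deprivation value was 9.35.

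Deprivation itself left few marks on the members in the values as deposited. In 8 of the 91 (8.79%) at least 1 later time was more than 2-fold away from 6 h N-, beside 51.3% of all genes. The share was 17.1% in the other cluster 2 genes and 78.1% in cluster 3. Against 6 h N-, the rule limited downward changes at 24 h N-, upward changes at 72 h N- and changes either way at the end of resupply. The share among the members follows in part from it. The median of 72 h N- minus 6 h N- was 0.00, with 0 members higher and 3 lower, beside 4.78% and 43.2% of all genes. In centred values it was 0.84, with 36 members higher and 1 lower, because the median of all genes declined by 0.84 over the same hours. Of the 310 other cluster 2 genes 121 were higher and 0 lower on that scale.

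The genes that moved most by 48 h N- went both ways. The gene augustus_masked-nanno_6336-abinit-gene-0.3 was higher through deprivation, at 7.05, 7.84, 8.19, 7.97 and 7.95, and snap_masked-nanno_1952-abinit-gene-0.2 stood at 6.47, 6.91, 7.14, 7.33 and 7.30. Both were lower after resupply than at any time before it, except for the 24 h NR value of the first, 7.65, which followed 6.00 at 6 h and 5.05 at 12 h. In the other direction, maker-nanno_925-augustus-gene-0.63 stood at 8.86, 8.81, 7.92, 7.54 and 7.65 in deprivation and at 6.17, 5.93, 6.57, 7.65 and 9.17 in resupply. It ended at its own highest value. The gene snap_masked-nanno_3650-abinit-gene-0.0 had a difference of -1.19 between 48 h and 6 h N- and reached its low point of 5.38 at 12 h NR.

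Set against the same hour of deprivation, 69 members were lower at 6 h NR, beside 59% of all genes, 81 at 12 h, beside 62.8%, 45 at 24 h, beside 10.5%, and 32 at 48 h, beside 8.4%. In cluster 3 alone, 707 of 872 genes were lower at 6 h NR and 841 at 12 h. The median difference of the members was -2.04 at 12 h and -1.0 at 24 h. At 12 h 3 members were higher, beside 31.3%. In centred values the median was -0.60 at 12 h, with 29 members lower and 10 higher, and -1.55 at 24 h, with 69 lower. Of the 310 other cluster 2 genes 105 were lower and 20 higher at 12 h, and 273 lower at 24 h, on that scale. In 3 members NR was more than 2-fold above N- at 12 h and more than 2-fold below it at 24 h, beside 0.482% of all genes.

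The members differed from the other 310 genes of cluster 2 in the columns the rule used. The others had a median of 6.87 at 6 h NR and the members one of 7.95, and their median difference from 72 h N- was -2.58, beside -1.47. From 6 h to 12 h NR 234 of the 310 were higher, by any amount, and 13 of the 91 were. By 24 h NR the medians were 8.22 and 8.14, and at 72 h NR 9.15 and 9.42. The range from lowest to highest value had a median of 3.20 in the others and of 2.42 in the members. These values carry no test, since they follow from how the members were picked.

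**Figure D5:**
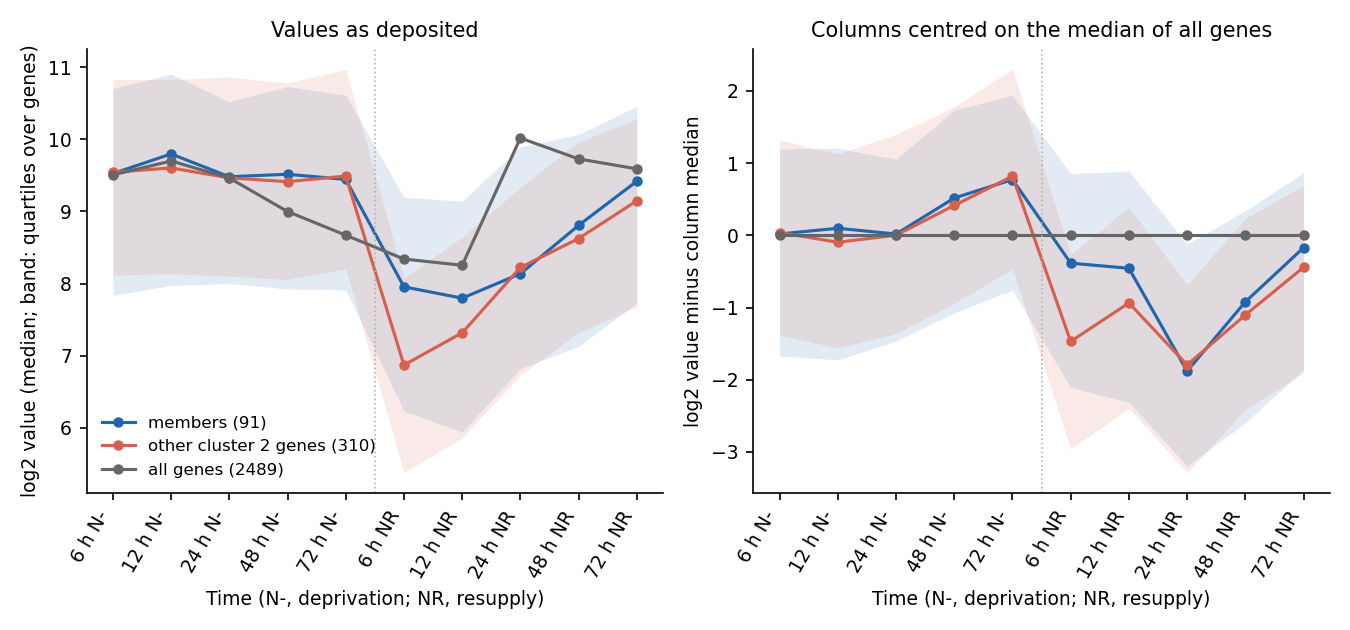
Median log2 value (lines) with quartiles over genes (bands) of the 91 members and of the other 310 cluster 2 genes, and the median of all 2489 genes, by time, as deposited (left) and with each column centred on the median of all genes (right). As deposited the members are lowest at 12 h NR, with a median of 7.80, whereas after centring their low point is at 24 h NR.

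The limits of the rule cut through a continuous range. The nearest member for the lowest-column condition, augustus_masked-nanno_339-abinit-gene-0.3, had a margin of -0.0028 to the lowest of its other 8 values, and the nearest gene left out, augustus_masked-nanno_1046-abinit-gene-0.27, one of 0.0039. That condition alone kept out 133 genes of cluster 2. At the limit on 6 h NR minus 72 h N- the nearest values were -2.91 inside and -3.13 outside, with 10 genes kept out by it alone. At the limits on 72 h NR minus 6 h N- they were -0.96 and -1.0 at the lower end and 0.97 and 1.26 at the upper end, with 22 and 6 genes kept out. For 72 h N- minus 6 h N- they were 0.90 and 1.02, and for 24 h N- minus 6 h N- -0.94 and -1.05, with 6 and 3 genes kept out.

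The genes outside the list with the profile most like the members' median profile were both in cluster 2. Over the 10 time points the Pearson correlation was 0.98 for maker-nanno_595-augustus-gene-0.13 and 0.98 for snap_masked-nanno_856-abinit-gene-0.15. The first stood at 10.75 before resupply and then at 6.51, 6.99, 7.82, 8.99 and 10.00. The second stood at 9.22 and then at 7.03, 7.11, 7.82, 8.28 and 8.97. In both the low point was 6 h NR, with 12 h close to it. The members themselves had a median correlation of 0.87 with that profile, and 26 were under 0.8, so the list is less uniform than its median.

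The identifiers tell which program made the gene model and on which contig it lies, and neither was used by the rule. Of the 91 members, 25 (27.5%, exact Clopper-Pearson 95% interval 18.6 to 37.8) were evidence-based models, named maker, beside 33.2% of the other cluster 2 genes and 34.8% of all genes. Predictions by snap made up 39 (42.9%, interval 32.5 to 53.7), beside 28.1% and 29.5%, and predictions by augustus 27 (29.7%), beside 38.7% and 35.7%. The intervals cover counting error only, and no test was made, since the members were chosen with their values known. None of the identifiers occurs in the reference gene table used here, so no function, position on a chromosome, structure or sequence is given.

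The members lay on 83 contigs, and 7 contigs held more than 1 of them, 15 genes in all. Of 4095 possible pairs 9 shared a contig, 2.20 per 1000, beside 1.57 per 1000 among the other cluster 2 genes and 1.25 among all genes. By share of genes on such contigs the order was the reverse, with 16.5%, 34.5% and 70.6%, a share that grows with the size of a set. Contig 711 held 3 members, so several of the 9 pairs are not independent. The median correlation of the 9 pairs over 10 time points was 0.94, beside 0.79 over all member pairs. The closest pair by number was augustus_masked-nanno_711-abinit-gene-0.14 and augustus_masked-nanno_711-abinit-gene-0.15, numbers 14 and 15 of the same gene finder. The first stood at 10.89, 10.79, 10.02, 10.78 and 10.04 in deprivation and at 9.65, 8.79, 9.83, 10.05 and 10.37 in resupply. The second stood at 12.61, 12.32, 11.69, 12.40 and 11.84 and then at 11.29, 10.47, 11.39, 11.67 and 12.07. Both share low points at 24 h N- and 12 h NR, with a correlation of 0.99. The files do not tell if both come from a single transcript.

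On contig 2607, snap_masked-nanno_2607-abinit-gene-0.0 and maker-nanno_2607-augustus-gene-0.2 had a correlation of 0.95. Their drops were -1.60 and -1.58, and their returns to 72 h NR were 2.29 and 2.25. The first of these was 1 of the 2 members with the lowest mean value over the 10 times, 4.92, next to snap_masked-nanno_2235-abinit-gene-0.18 at 3.95, whose values ran from 2.89 to 4.93. The highest mean values were those of augustus_masked-nanno_921-abinit-gene-0.10, 13.56, and maker-nanno_898-augustus-gene-0.24, 13.55. Whether these values were divided by gene length is not stated, so they are not used to rank transcripts. In 6 members the mean was under 6, where a difference may rest on little signal. The drop did not follow the mean value in steps, with medians of -2.18 for means from 6 to 8, -1.92 from 8 to 10, -1.67 from 10 to 12 and -2.09 from 12 upwards.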

How the data were processed

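Total RNA of Nannochloropsis oceanica CCMP1779 was sequenced in 44 libraries. Per the labels' protocols, reads were trimmed with Trimmomatic 0.32, mapped to the CCMP1779 genome in STAR 2.3.0e, keeping uniquely placed reads, and counted per gene with HTSeq 0.6.1, so near-identical genes are undercounted. Genes called with DESeq2 were clustered by k-means in MeV 4.8.1, per the labels' protocols. The authors deposited 1 value on a log2 scale per gene and time point. The scale was inferred from the values, which run from 1.46 to 19.5, and neither the transformation nor the library scaling nor the joining of libraries is stated in the labels. The other deposited column is the authors' row number and was not used. Depth per library is unknown.

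The design foresaw limma for replicate values. The tables hold none, so differences were described by size, with 2-fold (1 on the log2 scale) as the limit, using Python 3.11.15, numpy 2.4.6 and pandas 2.3.3. The scripts were tested on simulated profiles. The members, lists and rules were chosen with earlier results of these data known. At most 2 identifiers were named each way per comparison, by largest or smallest difference, nearest limit, nearest gene number, mean value or profile correlation. Gene lists by function could not be applied, since 0 of 2489 identifiers matched the 160 genes of the RefSeq-derived table (IMET1). Alternatives were centred columns, limits of 1.5-fold and 3-fold, shifted rule limits, means and a filter on low values.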

Additional observations from a re-analysis of the deposited data

Results flagged for a closer look

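The contrast of resupply with deprivation had opposite directions at 12 h and 24 h in 3 members, each past 2-fold, which is why they are given here. With 1 value each, the change between both times was not tested. In snap_masked-nanno_831-abinit-gene-0.19 NR minus N- was 1.28 at 12 h and -1.59 at 24 h. In augustus_masked-nanno_3722-abinit-gene-0.2 it was 1.19 and -1.77. In maker-nanno_6581-snap-gene-0.10 it was 1.05 and -1.40. In each of the 3 genes 12 h N- was the lowest deprivation value, at 6.51, 7.52 and 8.22 in the same order. In centred values the 3 genes kept both directions, with 2.73 and -2.14, 2.63 and -2.32, and 2.50 and -1.95. On that scale 10 members and 64 of all 2489 genes met the same condition. The members were chosen from these columns, so the 24 h direction follows in part from the rule.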

How the results depend on the processing

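No paired analysis was possible because the tables hold 1 value per time point, and leaving out replicates could not be run for the same reason. Of 89 alternative values for 30 results, 46 stayed within the set tolerance, 42 moved beyond it and 1 reversed. For the number of members the tolerance compares counts only. The centred list of 110 genes therefore counts as within it, although only 41 of its genes were members.

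The rule gave 110 genes on centred columns, of which 41 were members. It gave 111 with every limit loosened by 0.25, 66 with every limit tightened, 81 where the lowest column had to be clear by 0.1, and 766 over all 4 tables. Centring on the median of all genes moved most results. The step from 12 h to 24 h NR reversed, from a median of 0.95 to -0.82 (0.77 as a mean over members). The counts became 2 higher and 44 lower, and 22.0% of the members were then lower at 12 h than at 24 h NR. Against 72 h N- the centred medians were -1.14, -1.36, -2.37, -1.88 and -1.24 at the 5 successive times of resupply, with 87 members lower at 24 h, 59 lower and 0 higher at 72 h. Of the 310 other cluster 2 genes 303 were lower at 24 h, and 213 lower and 4 higher at 72 h. The share of the drop present at 6 h NR became 42.7%. The steps after 24 h NR became 0.62 and 0.53, with 21 members higher at 48 h than at 24 h NR, and 1 was lower at 12 h than at 6 h NR. The median of 72 h N- minus 6 h N- became 0.84, with 39 members past 2-fold of 6 h N- at some later deprivation time. At matched hours the medians became -0.60 with 29 lower at 12 h and -1.55 with 69 lower at 24 h.

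With a 3-fold limit 39 members were lower than 72 h N- at 6 h NR and 25 at 24 h, 22 were lower than 24 h N- at 24 h NR, 54 were above their lowest value at 72 h NR, and 24 were higher and 3 lower at 24 h than at 12 h NR. Under that limit 0 were higher at 48 h than at 24 h NR, 4 higher at 72 h than at 48 h, 1 lower at 12 h than at 6 h NR, 0 lower and 0 higher at 72 h NR than at 72 h N-, and 2 past 6 h N-. With a 1.5-fold limit the counts were 28 higher at 48 h than at 24 h NR, 35 higher at 72 h than at 48 h, 24 lower at 12 h than at 6 h NR, 31 lower and 10 higher at 72 h NR than at 72 h N-, and 38 past 6 h N-. These counts change by construction of the limit. The cause of the shift between columns was not tested.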

Other observations

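The same numeric limits, applied to the other tables, were met by 22 genes of cluster 1, 626 of cluster 3 and 27 of cluster 4. The 626 cluster 3 genes had a different course. Their median difference from 72 h N- was 0.02 at 6 h NR, -0.87 at 12 h and 2.92 at 24 h, beside -1.47, -1.77 and -1.02 in the members. Over deprivation their median of 72 h N- minus 6 h N- was -1.58, beside 0.00.

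At 72 h NR 29 members (31.9%) were above their value at 72 h N- by any amount. The share was 68.2% in all genes and 25.8% in the other cluster 2 genes. Above their value at 6 h N- were 19 members, beside 1387 of all 2489 genes and 69 of the other 310 cluster 2 genes. The highest of the 10 values was that of 72 h NR in 8 members (8.79%), beside 4.34% of all genes and 10.3% of the other cluster 2 genes. It was that of 24 h NR in 2 members (2.20%), beside 28.4% and 0.645%.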
